A study of Mus musculus with 24 samples.

Results

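Dendritic cells and macrophages grown from bone marrow were compared at rest, that is, without any STING agonist, in the WT-labelled libraries of a mouse RNA-seq series. The comparison held 5 of the 24 libraries, namely all 3 control libraries of bone marrow-derived dendritic cells (BMDCs) and 2 of the 3 control libraries of bone marrow-derived macrophages (BMDMs). BMDM replicate 3 was left out because it lacked macrophage transcripts, and its values are given where they bear on a result. The donor mice were C57BL/6N carrying Tmem173 fl/fl, the floxed allele of the STING gene, and the WT label means that the inducible Lyz2-Cre was absent. Tamoxifen was given to mice of both genotype labels. BMDMs were grown with medium conditioned by L929 fibroblasts, a source of M-CSF, and BMDCs with GM-CSF and IL-4. The sources used here name no sorting step, so each library is read as a whole culture. Cell type, growth factor and IL-4 therefore changed together in the design and cannot be told apart. The labels do not say whether replicates came from separate animals, so p-values measure the spread between these libraries. A second set of 5 control libraries, from mice labelled CRE (Tmem173 fl/fl with Lyz2-Cre ert2; 3 BMDC and 2 BMDM, again without BMDM replicate 3), served to repeat the comparison.

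M-CSF acts through its receptor Csf1r and drives marrow precursors into macrophages, which clear dead cells, take up lipoproteins and digest what they engulf in lysosomes. GM-CSF acts through Csf2ra and Csf2rb and yields cells able to present antigen, in which MHC class II molecules display peptides to CD4+ T cells and Ccr7 guides migration to lymph nodes. IL-4 acts through Il4ra and the transcription factor STAT6, and in mice it induces a well-known set of genes that includes Arg1, Retnla and Chil3. Cultures grown with GM-CSF are known to hold cells of both dendritic and macrophage character.

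The 6 marker transcripts, 3 for each cell type, were read first (values in FPKM, read counts scaled to gene length and library size). Itgax (ENSMUSG00000030789, chromosome 7, 128129547 to 128150657), which encodes CD11c, had 286, 303 and 307 FPKM in BMDC replicates 1, 2 and 3 and 45.1 and 45.5 in BMDM replicates 1 and 2. Zbtb46 (ENSMUSG00000027583, chromosome 2, 181387762 to 181459426), a transcription factor of classical dendritic cells, had 2.88, 3.4 and 3.99 FPKM in BMDCs and 0.0288 and 0.123 in BMDMs. Ccr7 (ENSMUSG00000037944, chromosome 11, 99144196 to 99155077), the lymph node homing receptor, had 84.9, 95.3 and 158 FPKM in BMDCs and 0 and 0.024 in BMDMs, where a single read was counted in both libraries together. For each of these transcripts every BMDC library lay above both BMDM libraries. Adgre1 (ENSMUSG00000004730, chromosome 17, 57358691 to 57483527), which encodes F4/80, had 88.2, 102 and 91.2 FPKM in BMDCs and 296 and 208 in BMDMs. Csf1r (ENSMUSG00000024621, chromosome 18, 61105572 to 61132149), the M-CSF receptor, had 40.6, 54.4 and 54.2 FPKM in BMDCs and 373 and 327 in BMDMs. Lyz2 (ENSMUSG00000069516, chromosome 10, 117277331 to 117282321), which encodes lysozyme, had 5963, 4031 and 5143 FPKM in BMDCs and 9222 and 10806 in BMDMs. These macrophage transcripts lay above every BMDC library in both BMDM libraries, yet none of them was absent from BMDCs. BMDM replicate 3 had 0, 0.526 and 0.832 FPKM of Adgre1, Csf1r and Lyz2, below any of the 5 other libraries. For Adgre1, Csf1r and Lyz2 the level in BMDMs is no check of the labels, since the 2 BMDM libraries were kept and the third left out by such transcripts. Itgax was higher in the libraries labelled BMDC by a measure that this choice did not use. Zbtb46 and Ccr7 were under 1 FPKM in both BMDM libraries. They were tested only because BMDCs reached that level, so their direction lends no support.

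**Figure D1:**
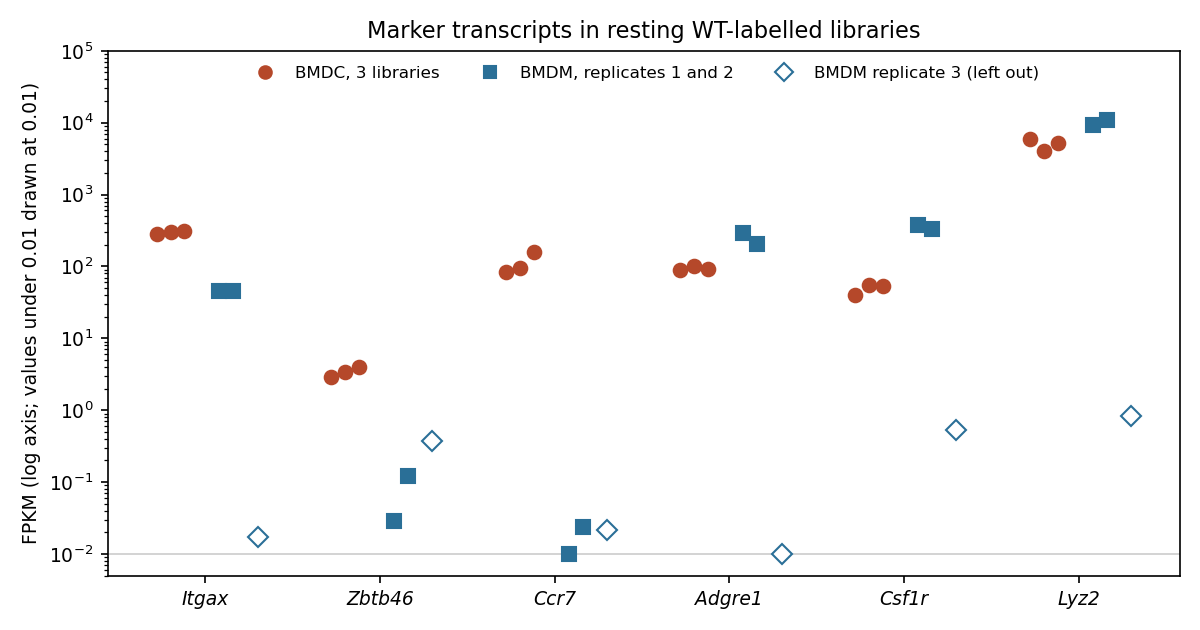
FPKM of the 6 marker transcripts on a log axis, 1 point per library, for the 3 BMDC libraries, BMDM replicates 1 and 2, and BMDM replicate 3, which was not tested. Itgax, Zbtb46 and Ccr7 are higher in every BMDC library, and Adgre1, Csf1r and Lyz2 are higher in both BMDM libraries tested, while BMDM replicate 3 stays under 1 FPKM for all 6.

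In edgeR's quasi-likelihood test the differences in Itgax (log2 fold change 2.71 ± 0.18, adjusted p = 0.000254), Zbtb46 (5.46 ± 0.55, adjusted p = 0.000967), Adgre1 (-1.44 ± 0.20, adjusted p = 0.00306) and Csf1r (-2.83 ± 0.21, adjusted p = 0.000334) were larger than the spread between libraries. All log2 fold changes are BMDC over BMDM and are followed by their standard error, and all p-values were adjusted over the 11537 genes tested by the Benjamini-Hochberg method. Ccr7 reads, scaled to library size, were 9216 (95% exact interval 1654 to 364057) times higher in BMDCs, an interval that covers counting error only. Lyz2 differed by -1.01 ± 0.25, adjusted p = 0.0259, a call that was lost without 1 library (adjusted p 0.105 without BMDC replicate 2, 0.0886 without BMDC replicate 3 and 0.0779 without BMDM replicate 2). The spread among BMDMs in these tests was set in part by leaving out replicate 3. With that library in the fit, Adgre1 stood at -0.85 (adjusted p = 0.841), Csf1r at -2.23 (adjusted p = 0.455), Lyz2 at -0.41 (adjusted p = 0.925), Itgax at 3.30 (adjusted p = 0.335) and Zbtb46 at 4.24 (adjusted p = 0.0589). None of these was then called, and of the 6 markers Ccr7 alone was (adjusted p = 0.0062). The Lyz2 promoter also drives the Cre of the CRE-labelled mice, and the Lyz2 transcript stood among the most abundant of both cultures. In bulk RNA, fewer cells of a type and less RNA per cell cannot be told apart.

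The 5 libraries held 16904428 to 18912887 counted reads each, and 10575 to 11119 genes per library reached an FPKM of 1. Across 11537 genes tested, 3038 (26.3%) were called at an adjusted p under 0.05, of which 1569 (13.6% of the genes tested) were higher and 1469 (12.7%) lower in BMDCs. The median log2 fold change over all genes tested was 0.002. Large differences were mostly in favour of BMDCs. A fold above 16 was reached by 337 called genes higher in BMDCs and by 94 lower ones when genes with no count in the other culture were set to their lower bound. Of these genes without counts in one culture, 87 were called higher in BMDCs and 9 higher in BMDMs. These counts do not treat the cultures alike. To be tested, a gene needed 1 FPKM in at least 2 of the 5 libraries. One seen in BMDCs alone thus needed 2 of 3 libraries, and one seen in BMDMs alone needed both. Absence of reads likewise had to hold in 2 BMDM but in 3 BMDC libraries. The part of this in the excess for BMDCs was not tested. The count of called genes fell to 1822 without BMDC replicate 2 and to 1823 without BMDC replicate 3, and with BMDM replicate 3 included it fell to 651. By FPKM, 6442 of the genes tested (55.8%) did not overlap between the 3 BMDC and the 2 BMDM libraries, with BMDCs higher for 3347 of them (29.0% of the genes tested).

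Genes on 30 lists of myeloid programmes and cell type markers were then read one programme at a time. Some genes were shared between lists, so the list counts are not independent. Plet1, for example, was on the IL-4 and alveolar macrophage lists, and Cx3cr1 on the macrophage identity and chemokine receptor lists. The lists held 499 genes, of which 498 were in the table, 383 passed the filter on low values and 248 were called, 131 higher and 117 lower in BMDCs, where 26.3% of all genes tested were called. List counts below are to be read beside the shares over all genes tested, 13.6% higher and 12.7% lower in BMDCs. With BMDM replicate 3 included, 78 of the list members were called. These counts are a description, since the lists were drawn up with earlier results of these data known. Some members passed the filter through 1 culture alone. Members under 1 FPKM in both BMDM libraries made up 13 of the 21 tested IL-4 genes, 9 of 18 maturation genes, 7 of 18 dendritic cell identity genes, 7 of 13 neutrophil genes and 7 of 7 mast cell and basophil genes. They also made up 5 of 14 monocyte genes, 2 of 4 eosinophil genes and 3 of 4 erythroid and megakaryocyte genes. Such members had to be higher in at least 2 BMDC libraries, so the counts and medians of these lists lend no support to a direction. Members under 1 FPKM in all 3 BMDC libraries were fewer, for example 3 of 20 macrophage identity genes.

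**Figure D2:**
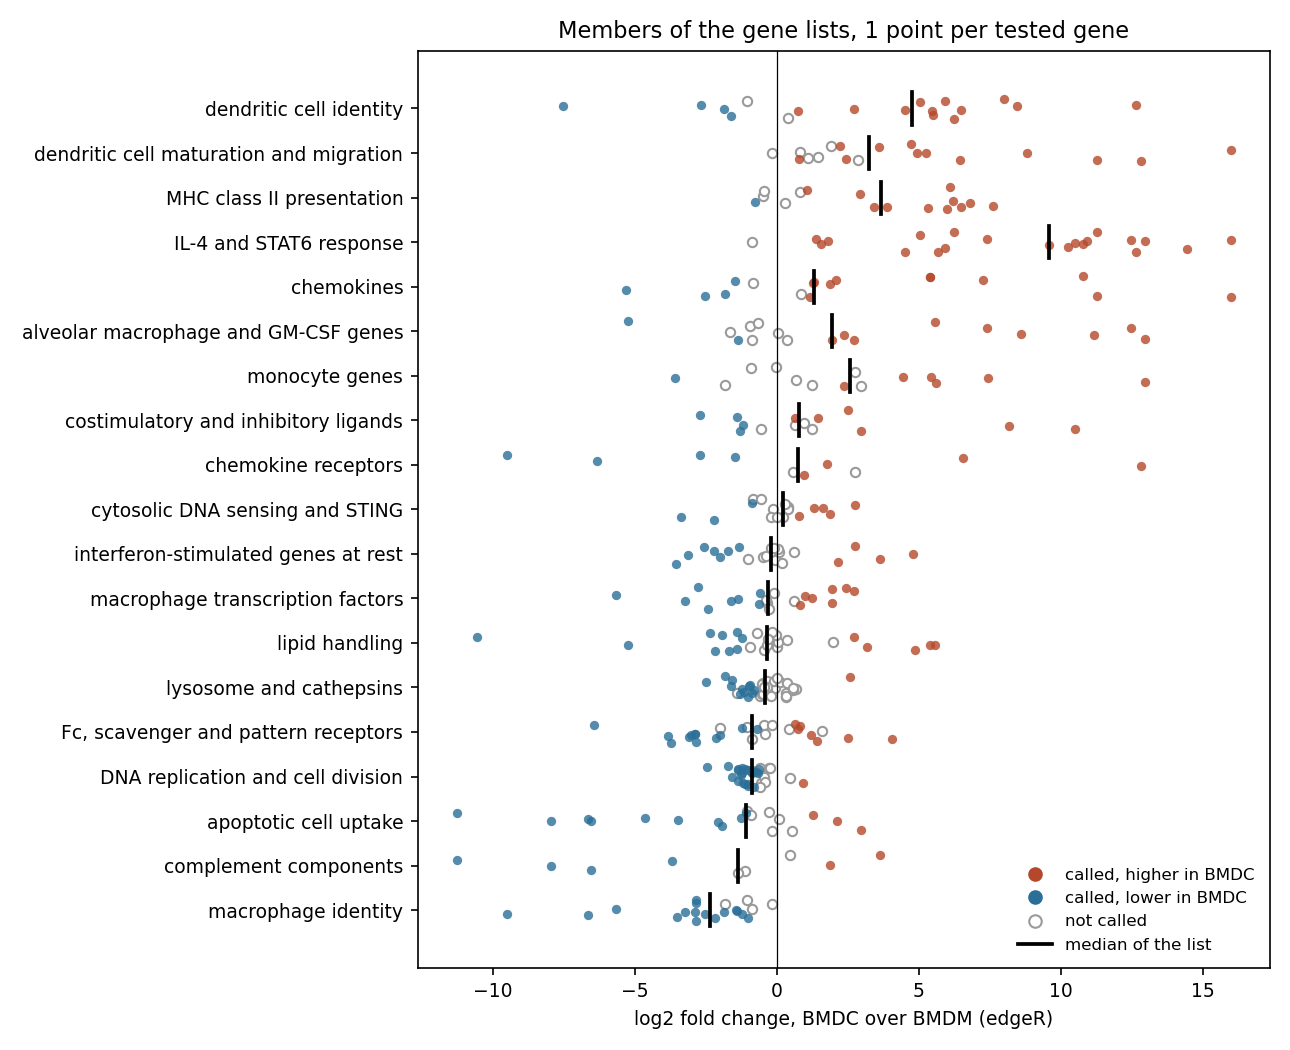
Log2 fold change of BMDC over BMDM for the tested members of 19 gene lists, 1 point per gene, where filled points were called in edgeR, open points were not, and black bars are list medians. Genes with no count in 1 culture are drawn at the lower bound of their fold, and most members of the IL-4, dendritic cell identity and MHC class II lists lie to the right while macrophage identity lies to the left.

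Of 25 dendritic cell identity genes, 18 were tested, 12 were higher and 4 lower in BMDCs, and the list median was 4.77 on the log2 scale against 0.002 for all genes tested. Values after "against" are those of BMDM replicates 1 and 2. Irf4, needed for the type 2 classical dendritic cell, had 67.1, 66.3 and 66.5 FPKM in BMDCs and 0.27 and 0.106 in BMDMs (log2 fold change 8.45 ± 0.40, adjusted p = 0.000106). Batf3, best known from the type 1 classical dendritic cell, had 68.4, 57.3 and 73.9 against 1.53 and 0.208 FPKM (6.25 ± 0.70, adjusted p = 0.00144). The C-type lectin Mgl2, which encodes CD301b, reached 1640.0, 1198 and 1106 FPKM in BMDCs and stood at 0.234 and 0.158 in BMDMs (12.67 ± 0.42, adjusted p = 4.37e-05). Cd209a, a lectin of the DC-SIGN family, had 4.9, 4.09 and 5.95 FPKM in BMDCs and 0 and 0.0299 in BMDMs, where 1 read was counted. Naaa, a lysosomal amidase used as a marker of type 1 dendritic cells, had 271, 198 and 228 against 3.84 and 6.33 FPKM (5.49 ± 0.34, adjusted p = 0.000203). None of these transcripts overlapped between the cultures, where 29.0% of all genes tested were higher in BMDCs without overlap. Irf4, Mgl2 and Cd209a passed the filter through BMDCs alone, so their lack of overlap lends no support. In all, 7 of the 18 tested members passed that way, so the count and median of the list lend none either.

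The 4 identity genes that were lower in BMDCs included further transcripts linked to type 1 dendritic cells. Irf8, which is required for that lineage, had 6.85, 5.88 and 6.06 FPKM in BMDCs and 31.6 and 13.4 in BMDMs (-1.86 ± 0.33, adjusted p = 0.00814). Cadm1, an adhesion molecule, had 0.0516, 0.0732 and 0.0829 against 19.8 and 6.35 FPKM (-7.55 ± 0.56, adjusted p = 0.00035). The double-stranded RNA sensor Tlr3 stood at -2.67 ± 0.43, adjusted p = 0.00554, and the inhibitory receptor Sirpa, carried by type 2 dendritic cells and macrophages, at -1.63 ± 0.22, adjusted p = 0.00265. Clec9a, a receptor for dead cells on type 1 dendritic cells, went the other way but at a low level, with 0.54, 2.12 and 1.84 FPKM in BMDCs. Flt3, Spib, Bcl11a, Btla, Ccr6, Itgae and Xcr1 did not pass the filter. Flt3, the receptor that supports dendritic cells in vivo, had 0.288, 0.107 and 0.478 FPKM in BMDCs, and Xcr1, the chemokine receptor of type 1 dendritic cells, 0.0968, 0.0229 and 0.0572.

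Maturation and migration genes were compared next, since dendritic cells can mature in culture without a stimulus. Of 18 tested, 12 were higher in BMDCs and 0 were lower, with a median of 3.23. Of the 18, 9 passed the filter through BMDCs alone, so this count and median lend no support to a direction. The chemokine Ccl22 had 488, 405 and 614 FPKM in BMDCs and 0.211 and 0.184 in BMDMs (11.28 ± 0.39, adjusted p = 4.5e-05). Ccl17 was one of the most abundant transcripts of the BMDC libraries, with 6338, 2128 and 3302 FPKM, and a single read was counted in BMDMs. The signalling inhibitor Socs2 had 28.2, 19.1 and 25.5 against 0.154 and 0.383 FPKM (6.47 ± 0.47, adjusted p = 0.000331). Cacnb3, a calcium channel subunit that rises in migratory dendritic cells, had 14.3, 22.5 and 45.4 FPKM in BMDCs and 0.183 and 1.23 in BMDMs (5.25 ± 0.92, adjusted p = 0.0077). Fscn1, the actin bundling protein of mature dendritic cells, varied within both cultures, with 26.5, 32.4 and 60.4 against 1.56 and 19.2 FPKM, and was called only without BMDM replicate 2 (1.92 ± 0.95, adjusted p = 0.185, and adjusted p 0.00425 without BMDM replicate 2). Within BMDCs, replicate 3 had the highest value for 10 of the 18 genes, replicate 1 for 8 and replicate 2 for 0. Over all genes tested these numbers were 3297, 5029 and 3211.

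Costimulatory and inhibitory ligands split in both directions, 6 higher and 4 lower of 14 tested. Cd80, which engages CD28 on T cells, had 16.8, 14.1 and 18.5 FPKM in BMDCs and 1.88 and 3.79 in BMDMs (2.52 ± 0.34, adjusted p = 0.00286). Its relative Cd86 had 55.4, 14.6 and 23.7 against 1.51 and 6.33 FPKM, with BMDC replicate 1 highest (2.96 ± 0.80, adjusted p = 0.0366, but adjusted p 0.0863 without BMDC replicate 1, 0.0651 without BMDC replicate 3 and 0.0903 without BMDM replicate 1). Pdcd1lg2, which encodes the PD-1 ligand PD-L2, had 83.6, 55.8 and 73.3 FPKM in BMDCs and 3 reads in BMDMs. Tnfsf4, which encodes OX40 ligand, had 32.2, 18.8 and 18.2 FPKM in BMDCs, at least 288-fold above BMDMs, where no read was counted. Cd274, which encodes PD-L1, had 45.4, 63.4 and 57 against 18.7 and 38.2 FPKM and was not called (0.94 ± 0.33, adjusted p = 0.0837, but adjusted p 0.00817 without BMDM replicate 2). The checkpoint genes Vsir (-1.41 ± 0.23, adjusted p = 0.00601) and Havcr2 (-1.29 ± 0.25, adjusted p = 0.011) were lower in BMDCs, as was Cd276 (-2.71 ± 0.52, adjusted p = 0.0108). Without BMDC replicate 3 the list held 3 higher and 3 lower calls.

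Most MHC class II genes were higher in BMDCs. Of 16 tested, 11 were higher and 1 was lower in BMDCs, with a median of 3.66. With BMDM replicate 3 included, 5 were called, all higher. Ciita, the master coactivator of the pathway, had 6.23, 5.37 and 3.9 FPKM in BMDCs and 0.0154 and 0.0348 in BMDMs (7.62 ± 0.42, adjusted p = 0.000133). The alpha chain gene H2-Aa had 392, 298 and 191 against 3.21 and 5.21 FPKM (6.10 ± 0.45, adjusted p = 0.000346), and its partner H2-Ab1 had 501, 382 and 217 against 4.4 and 6.92 (5.99 ± 0.49, adjusted p = 0.000456). The beta chain gene H2-Eb1 had 440.5, 293 and 182 against 3.6 and 4.56 FPKM (6.20 ± 0.48, adjusted p = 0.000368). Within BMDCs all 3 were highest in replicate 1 and lowest in replicate 3. Cd74, the invariant chain that escorts class II molecules, had 5015, 3261 and 2727 FPKM in BMDCs and 28.1 and 35.9 in BMDMs (6.82 ± 0.41, adjusted p = 0.000195). The peptide editors H2-DMa (3.88 ± 0.20, adjusted p = 0.000133), H2-DMb1 (2.93 ± 0.22, adjusted p = 0.000367) and H2-DMb2 (5.33 ± 0.37, adjusted p = 0.000277) were higher as well, and so were the subunits of their inhibitor, H2-Ob (3.44 ± 0.41, adjusted p = 0.00191) and H2-Oa, with 3.77, 4.07 and 3.53 FPKM against 2 reads in BMDMs. Every BMDC library lay above both BMDM libraries for each of these genes, where 29.0% of all genes tested were higher in BMDCs without overlap. Of the 16 tested, 3 were under 1 FPKM in both BMDM libraries and passed the filter through BMDCs alone. BMDC replicate 1 had the highest value for 11 of the 16 genes, replicate 2 for 5 and replicate 3 for 0.

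Partners that process antigen or bind the promoters gave smaller differences. Ctss, the protease that trims the invariant chain, had 2289.8, 1912 and 1827 FPKM in BMDCs and 2499 and 3121 in BMDMs (-0.50 ± 0.21, adjusted p = 0.128), and Ifi30, a lysosomal thiol reductase, had -0.45 ± 0.26, adjusted p = 0.244. Neither was called. Of the constitutive promoter binding subunits, Rfx5 had 0.29 ± 0.27, adjusted p = 0.482, Rfxap -0.78 ± 0.20, adjusted p = 0.0291 and Rfxank 1.07 ± 0.26, adjusted p = 0.0246. The Rfxap and Rfxank calls were each lost on leaving out any of BMDC replicates 1, 2 or 3 or BMDM replicate 1, with adjusted p of up to 0.115 and 0.0977.

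Promoters of the class II genes are known to share a Y box bound by NF-Y next to the site of the RFX complex, which recruits Ciita. The letters CTGATTGG, searched on both strands over 250 bases before and 50 bases after the start site (RefSeq, GRCm38.p6), were found in 4 of the 12 list members with a promoter sequence. They were found in 4.1% of 32851 mouse promoters of the same length. H2-Aa (chr17:34287774-34288073, minus strand), H2-Eb1 (chr17:34305617-34305916, plus strand) and H2-Oa (chr17:34092129-34092428, plus strand) are shown because they carry the match within the last 70 bases before the start site and were called, with the match in capitals.
H2-Aa: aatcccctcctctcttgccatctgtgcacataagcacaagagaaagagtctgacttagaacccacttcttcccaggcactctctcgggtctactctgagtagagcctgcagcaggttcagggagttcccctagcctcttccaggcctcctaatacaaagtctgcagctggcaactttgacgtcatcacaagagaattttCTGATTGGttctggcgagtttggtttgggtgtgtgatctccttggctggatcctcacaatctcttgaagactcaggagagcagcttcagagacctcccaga
H2-Eb1: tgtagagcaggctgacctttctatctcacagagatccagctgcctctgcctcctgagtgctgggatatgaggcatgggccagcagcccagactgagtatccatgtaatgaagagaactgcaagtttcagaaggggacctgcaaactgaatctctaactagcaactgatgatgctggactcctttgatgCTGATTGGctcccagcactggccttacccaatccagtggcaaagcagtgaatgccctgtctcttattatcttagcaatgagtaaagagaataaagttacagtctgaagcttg
H2-Oa: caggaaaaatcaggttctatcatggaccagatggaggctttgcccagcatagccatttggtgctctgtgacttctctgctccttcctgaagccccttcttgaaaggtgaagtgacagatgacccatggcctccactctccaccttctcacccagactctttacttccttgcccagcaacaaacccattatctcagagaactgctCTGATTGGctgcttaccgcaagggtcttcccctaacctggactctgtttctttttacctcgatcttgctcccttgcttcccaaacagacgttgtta
In H2-Aa and H2-Oa the match starts 51 and 46 bases before the start site, and in H2-Eb1 62 bases before it. A match of letters describes the window and was not tested for binding.

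The IL-4 and STAT6 list had the highest median of the lists in the plot of list members. Of 21 genes tested, 20 were higher in BMDCs, 0 were lower and the median was 9.59 on the log2 scale. Of the 21, 13 passed the filter through BMDCs alone, so this count and median lend no support to a direction. Chil3, a chitinase-like secreted protein with a near-identical copy (Chil4), had 8277, 12059 and 8214 FPKM in BMDCs and 1.53 and 0.842 in BMDMs (12.96 ± 0.55, adjusted p = 9.19e-05). Arg1, which breaks down arginine, had a mean of 376 ± 184 FPKM (SD, n = 3) in BMDCs against 0.176 and 0.426 in BMDM replicates 1 and 2 (10.25 ± 0.74, adjusted p = 0.000314). Retnla had 631, 396 and 425 FPKM in BMDCs, at least 1969.7-fold above BMDMs, where no read was counted. The lipoxygenase Alox15 had 12.6, 13.7 and 25.5 FPKM in BMDCs and 2 reads in BMDMs. Feedback inhibitors of cytokine signalling were higher too, with 35.7, 40.8 and 43 FPKM for Cish against 0.153 and 0.31 (7.40 ± 0.37, adjusted p = 0.000129) and 50.6, 57.7 and 60.3 FPKM for Socs1 against 0.505 and 1.32 (5.92 ± 0.45, adjusted p = 0.000364). The smallest called differences were those of Cd1d1 (1.37 ± 0.21, adjusted p = 0.00441), which presents lipid antigens, and Egr2 (1.54 ± 0.16, adjusted p = 0.00102). Mrc1, which encodes the mannose receptor and is widely used as an IL-4 marker, was the exception, with 17, 28.9 and 22.4 FPKM in BMDCs and 47.3 and 34.5 in BMDMs, and was not called (-0.86 ± 0.26, adjusted p = 0.0532, but adjusted p 0.0492 without BMDC replicate 2 and 0.0444 without BMDM replicate 2). BMDMs received no IL-4, so this list contrasts the media as well as the cells.

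STAT6 binds a palindrome of TTC and GAA set 4 bases apart. That pattern was found in 3 of the 16 list members with a promoter sequence and in 6.95% of all 32851 promoters of that length, on both strands, which read the same. These members were Retnla (chr16:48842359-48842658, plus strand), Ccl17 (chr8:94810203-94810502, plus strand) and Pdcd1lg2 (chr19:29410669-29410968, plus strand), all called higher in BMDCs, and they are shown with the match in capitals.
Retnla: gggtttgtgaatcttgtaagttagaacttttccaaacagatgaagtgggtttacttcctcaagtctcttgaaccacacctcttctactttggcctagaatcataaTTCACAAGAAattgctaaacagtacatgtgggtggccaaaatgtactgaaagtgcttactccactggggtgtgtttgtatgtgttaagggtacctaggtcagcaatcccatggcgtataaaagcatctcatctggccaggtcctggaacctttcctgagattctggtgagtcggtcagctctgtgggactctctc
Ccl17: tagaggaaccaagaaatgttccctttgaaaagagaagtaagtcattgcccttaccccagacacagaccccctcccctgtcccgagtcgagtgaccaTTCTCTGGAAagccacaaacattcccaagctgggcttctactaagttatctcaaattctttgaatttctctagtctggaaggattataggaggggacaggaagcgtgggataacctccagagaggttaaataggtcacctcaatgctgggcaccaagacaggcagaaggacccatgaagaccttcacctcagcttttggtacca
Pdcd1lg2: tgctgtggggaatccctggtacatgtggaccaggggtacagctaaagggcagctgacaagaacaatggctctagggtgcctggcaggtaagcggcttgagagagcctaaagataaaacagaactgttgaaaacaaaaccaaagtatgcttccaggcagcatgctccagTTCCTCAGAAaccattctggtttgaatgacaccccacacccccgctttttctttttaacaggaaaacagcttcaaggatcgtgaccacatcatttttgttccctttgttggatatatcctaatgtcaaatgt
The matches start 145, 154 and 82 bases before the start site. Chil3, Mgl2, Cish and Plet1, also called higher, hold no such letters in their windows.

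Chemokines other than Ccl17 and Ccl22 were also mostly higher in BMDCs, and the list counted 11 higher and 4 lower of 17 tested. Without BMDC replicate 2, or without BMDC replicate 3, it held 9 higher and 1 lower, and without either BMDM library 2 lower. Ccl6 had 5022, 4592 and 3599 FPKM in BMDCs and 88.7 and 117 in BMDMs (5.40 ± 0.32, adjusted p = 0.00017), Ccl9 had 883, 679.6 and 594 against 233 and 336 (1.32 ± 0.27, adjusted p = 0.0136), and Ccl5, which attracts T cells, had 178, 113 and 197 against 0.153 and 1.88 (7.28 ± 0.82, adjusted p = 0.00149). Ccl24, a ligand of the eosinophil receptor Ccr3, had 508, 210.4 and 217 FPKM in BMDCs and 0 and 0.329 in BMDMs (10.80 ± 0.96, adjusted p = 0.000613). Pf4 went the other way, with 32, 23.9 and 27.5 FPKM in BMDCs and 210.2 and 109.8 in BMDMs (-2.54 ± 0.28, adjusted p = 0.00146). Cxcl14 had 11.5, 0.502 and 0.529 against 294 and 35.7 FPKM and varied within both cultures (-5.33 ± 1.49, adjusted p = 0.0413, but adjusted p 0.0895 without BMDC replicate 2, 0.0949 without BMDC replicate 3 and 0.162 without BMDM replicate 1). Among the receptors, 4 of 10 tested were higher and 4 lower. For both lists, the shares over all genes tested were 13.6% higher and 12.7% lower. Cxcr2 (6.56 ± 0.49, adjusted p = 0.000346) was higher in BMDCs beside Ccr7. Cx3cr1, the fractalkine receptor of monocytes and tissue macrophages, had no read in any BMDC library and 30.4 and 19.6 FPKM in BMDMs, at least 730.1-fold more. Cxcr4, the receptor for Cxcl12, was lower in BMDCs (-1.46 ± 0.23, adjusted p = 0.00497). Ccr2, which marks monocytes, had 24.1, 10.5 and 10.3 FPKM in BMDCs and 4 and 0.372 in BMDMs, did not overlap, and was not called (2.77 ± 0.94, adjusted p = 0.0732, but adjusted p 0.00528 without BMDM replicate 1).

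Genes known from alveolar macrophages, which depend on GM-CSF, gave 9 higher and 2 lower of 17 tested, with a median of 1.94. Without BMDM replicate 1, and in DESeq2, they gave 9 higher and 5 lower. Car4, a carbonic anhydrase, had 87.6, 234 and 178 FPKM in BMDCs, at least 2281-fold above BMDMs, where no read was counted. Plet1 had 449.6, 385 and 448 FPKM in BMDCs, at least 5704-fold above BMDMs. Ear2, an eosinophil-associated ribonuclease, had 229.6, 149 and 111 against 0.0681 and 0.725 FPKM (8.61 ± 0.71, adjusted p = 0.000482), and Olr1, a receptor for oxidised lipoprotein, had 58.9, 56.4 and 49.8 against 0.631 and 1.66 (5.56 ± 0.45, adjusted p = 0.000461). Siglecf, the sialic acid lectin of alveolar macrophages and eosinophils, had 16.8, 13.9 and 15 against 1.97 and 3.84 FPKM (2.37 ± 0.32, adjusted p = 0.00283). The defining transcription factor of alveolar macrophages, Pparg, was lower in BMDCs, with 3.78, 3.6 and 3.95 against 9.6 and 9.81 FPKM (-1.38 ± 0.17, adjusted p = 0.00211). Its target Fabp4 was lower too (-5.23 ± 0.48, adjusted p = 0.000724). Monocyte genes gave 6 higher and 1 lower of 14 tested. Of the 14, 5 passed the filter through BMDCs alone, so the count lends no support to a direction. Ly6c2, which has a close copy in Ly6c1, had 8.89, 4.57 and 4.16 FPKM in BMDCs and 0.125 and 0.138 in BMDMs (5.43 ± 0.51, adjusted p = 0.00076). Ms4a6c was the one lower in BMDCs (-3.58 ± 0.40, adjusted p = 0.00146).

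The receptors for the culture cytokines were measured in both cell types. Csf2ra, the binding chain for GM-CSF, had 197, 265 and 264 FPKM in BMDCs and 183 and 191 in BMDMs and was not called (0.36 ± 0.20, adjusted p = 0.233). Csf2rb, the signalling chain, had 268, 265 and 264 against 51.5 and 122 FPKM (1.59 ± 0.38, adjusted p = 0.023, but adjusted p 0.0643 without BMDC replicate 1, 0.0609 without BMDC replicate 2 and 0.0634 without BMDC replicate 3). Il4ra had 40.1, 36.3 and 43 against 20.4 and 20.2 FPKM (0.95 ± 0.16, adjusted p = 0.00607). The list of growth factor receptors and ligands counted 3 higher and 3 lower of 14 tested, and 6 higher and 4 lower without BMDM replicate 2. The lower genes beside Csf1r were Tgfbr1, a TGF-beta receptor (-2.40 ± 0.35, adjusted p = 0.00369), and Tnfrsf11a, which encodes the osteoclast receptor RANK (-2.70 ± 0.39, adjusted p = 0.00365).

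**Figure D3:**
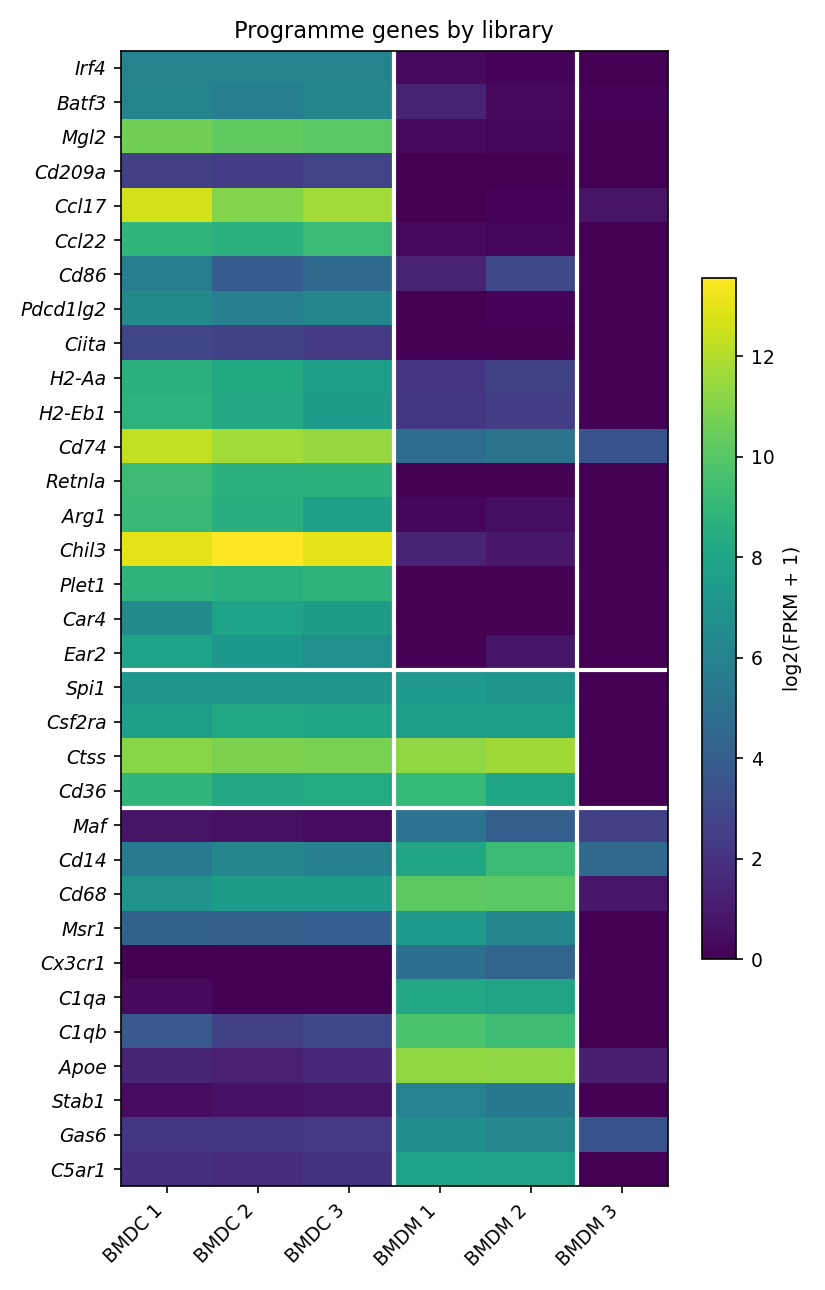
Heat map of log2(FPKM + 1) for 33 genes in the 5 libraries compared and in BMDM replicate 3, with genes higher in BMDCs above the first white line, genes not called between the lines and genes lower in BMDCs below. The 3 BMDC libraries share one pattern and BMDM replicates 1 and 2 another, while BMDM replicate 3 is low for nearly all genes drawn.

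Macrophage identity genes gave the opposite picture, with 16 of 20 tested lower and 0 higher in BMDCs and a median of -2.35. Over all genes tested, 12.7% were called lower. Maf, a transcription factor that stabilises the macrophage state, had 0.654, 0.525 and 0.334 against 35.5 and 15.9 FPKM (-5.68 ± 0.43, adjusted p = 0.000354). Cd14, the lipopolysaccharide coreceptor, had 46.4, 70.8 and 59.5 against 261 and 600.2 FPKM (-2.89 ± 0.38, adjusted p = 0.00257), and Cd68, a lysosomal membrane protein, 123, 176 and 169.9 against 1121 and 1079 (-2.83 ± 0.22, adjusted p = 0.000366). Msr1, a scavenger receptor, had 17.1, 16 and 15.3 against 158 and 73.2 FPKM (-2.85 ± 0.31, adjusted p = 0.00129). Stab1, another scavenger receptor, had 0.341, 0.589 and 0.693 FPKM in BMDCs and 64.2 and 43.1 in BMDMs (-6.64 ± 0.37, adjusted p = 0.000133). Trem2 (-2.18 ± 0.18, adjusted p = 0.00053), a lipid-sensing receptor, and Gpnmb (-1.87 ± 0.21, adjusted p = 0.00139), a membrane glycoprotein, were lower as well, and Gpnmb still had 597, 523 and 575 FPKM in BMDCs against 2241 and 1846. Mertk, Cd36, Mrc1 and Tmem119 were not called. BMDM replicate 3 was left out for its lack of such transcripts, so their level in BMDMs rests partly on that choice. With that library included, 2 macrophage identity genes were called, both lower in BMDCs.

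Among 20 transcription factors of macrophages, 7 were higher and 8 lower in BMDCs, against 4 and 6 without BMDC replicate 2 or without BMDC replicate 3. With BMDM replicate 3 included, 1 was called higher and 1 lower. Spi1, which encodes the myeloid master regulator PU.1, had 143, 143 and 141 FPKM in BMDCs and 156 and 146 in BMDMs and was not called (-0.10 ± 0.15, adjusted p = 0.656). The factors higher in BMDCs included Tfec (2.45 ± 0.18, adjusted p = 0.00032), a relative of Mitf, Runx3 (2.71 ± 0.17, adjusted p = 0.000215), Klf4 (1.95 ± 0.33, adjusted p = 0.00658) and Cebpd (1.24 ± 0.17, adjusted p = 0.00305). With BMDM replicate 3 included, Cebpd turned to -0.04 (adjusted p = 0.983). Those lower included Cebpa (-1.63 ± 0.29, adjusted p = 0.00792), the oxysterol receptor Nr1h3 (-2.43 ± 0.27, adjusted p = 0.00137) and Bhlhe41 (-2.76 ± 0.43, adjusted p = 0.00479). Irf4 and Irf8 therefore differed in opposite directions.

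Genes for the uptake of dead cells differed by component, with 3 higher and 10 lower of 19 tested. The bridging molecule Gas6 had 3.41, 3.6 and 3.72 FPKM in BMDCs and 99.8 and 77.9 in BMDMs (-4.65 ± 0.18, adjusted p = 7.48e-05), while its receptor Axl was higher in BMDCs, with 86.4, 54.9 and 62.3 against 10.8 and 19.8 FPKM (2.13 ± 0.34, adjusted p = 0.00538). Its other receptor Mertk had 3.43, 5.82 and 5.27 against 13.5 and 6.54 FPKM and was not called (-1.06 ± 0.35, adjusted p = 0.0708, but adjusted p 0.0158 without BMDM replicate 2). The integrin chains Itgb5 (-3.48 ± 0.28, adjusted p = 0.000428) and Itgav (-2.06 ± 0.28, adjusted p = 0.00283), which bind opsonised dead cells, were lower. The 3 chains of the complement component C1q, which also tags dead cells, were far lower in BMDCs. C1qa had 0.259, 0 and 0.049 FPKM in BMDCs and 283 and 237 in BMDMs (-11.28 ± 0.53, adjusted p = 0.000106). C1qb had 12.9, 5.29 and 6.36 against 843 and 649.5 FPKM (-6.53 ± 0.43, adjusted p = 0.000229), and C1qc had 2.18, 0.87 and 1.34 against 422 and 295 (-7.95 ± 0.41, adjusted p = 0.000133). Later complement proteins went the other way, with 42.6, 52.8 and 56.9 FPKM of C3 in BMDCs against 1.42 and 6.56 (3.65 ± 0.65, adjusted p = 0.00831) and 668, 578 and 485 FPKM of Cfp, the gene for properdin, against 165 and 149 (1.86 ± 0.20, adjusted p = 0.00131). With BMDM replicate 3 included, C3 turned to -0.08 (adjusted p = 0.982). The complement list as a whole gave 2 higher and 4 lower of 9 tested. With BMDM replicate 3, the uptake list had 2 and the complement list 1 called gene, all lower in BMDCs. The letters TGCTGAC, part of the element bound by Maf proteins, were searched on both strands of the promoters. They were found in 1 of 15 promoters of the macrophage identity list (Timd4) and 1 of 8 of the complement list (Cd55). Of all 32851 promoters, 4.67% held them. Neither Timd4 nor Cd55 passed the filter.

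Receptors for antibodies, scavenged ligands and microbial patterns gave 7 higher and 12 lower of 27 tested. Without BMDC replicate 2 there were 4 higher and 11 lower, and without BMDC replicate 3 there were 4 higher and 10 lower. With BMDM replicate 3 included, 1 gene of the list was called, higher in BMDCs. The complement peptide receptors were both lower in BMDCs. C5ar1 had 2.52, 2.44 and 2.89 against 235 and 215 FPKM (-6.44 ± 0.18, adjusted p = 3.21e-05), and C3ar1 had 34.2, 30 and 23.8 against 322 and 156 (-3.04 ± 0.32, adjusted p = 0.00117). The inhibitory antibody receptor Fcgr2b was higher in BMDCs (2.51 ± 0.25, adjusted p = 0.000991) and the activating receptor Fcgr4 lower (-2.13 ± 0.25, adjusted p = 0.00179). The fungal lectins split. Clec4n, which encodes Dectin-2, had 526, 712 and 764 FPKM in BMDCs and 18.4 and 61.4 in BMDMs (4.04 ± 0.58, adjusted p = 0.00355), and Clec4d, a neighbouring lectin gene, had 17, 32.3 and 37.4 against 307 and 519.9 (-3.85 ± 0.40, adjusted p = 0.00111). Of the Toll-like receptors, Tlr4, which senses lipopolysaccharide, was higher in BMDCs (1.43 ± 0.18, adjusted p = 0.00224). The endosomal RNA sensors Tlr7 (-1.99 ± 0.21, adjusted p = 0.00114) and Tlr13 (-2.87 ± 0.25, adjusted p = 0.000613) were lower, and so was Tlr1 (-3.11 ± 0.41, adjusted p = 0.00255). Tlr9, which senses DNA, had 1.33, 1.84 and 1.7 against 1.41 and 1.01 FPKM and was not called (0.42 ± 0.30, adjusted p = 0.35).

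Of 38 lysosomal genes tested, 12 were lower and 1 (Acp5) higher in BMDCs, where 26.3% of all genes tested were called and 12.7% were lower. Their median was -0.42, with log2 fold changes from -2.49 to 2.56. The call of Acp5, an acid phosphatase, depended on single libraries (2.56 ± 0.72, adjusted p = 0.0418, but adjusted p 0.0931 without BMDC replicate 1, 0.0528 without BMDC replicate 2, 0.0553 without BMDC replicate 3 and 0.113 without BMDM replicate 1). Ctsb had 686, 579 and 544 FPKM in BMDCs and 2162 and 2039 in BMDMs (-1.82 ± 0.21, adjusted p = 0.00155), and Ctsl had 177, 86 and 70.5 against 669.6 and 566 (-2.49 ± 0.39, adjusted p = 0.00519). Both encode cysteine proteases. Lipa, the acid lipase, had -1.21 ± 0.22, adjusted p = 0.00845, and Hexa, a glycosidase, -0.99 ± 0.16, adjusted p = 0.0058. The saposin precursor Psap had 4827, 4616 and 4281 FPKM in BMDCs and 2764 and 3319.7 in BMDMs and was not called (0.57 ± 0.22, adjusted p = 0.107). The letters TCACGTGA, the E box core of the element bound by the lysosomal regulator Tfeb, were found in 4 of 28 promoters of the list (Ctsd, Atp6v0d1, Atp6v1a and Mcoln1) and in 0.974% of all 32851. Within BMDCs, replicate 1 had the highest value for 28 of the 38 genes. Without BMDC replicate 2, or without BMDC replicate 3, there were 9 calls, all lower, and with BMDM replicate 3 included there were 0.

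Genes of lipid handling were led by Apoe. Apoe, which carries cholesterol out of macrophages, had 1.66, 1.31 and 2 FPKM in BMDCs and 2576 and 2418 in BMDMs (-10.57 ± 0.30, adjusted p = 3.21e-05), which is 1519-fold. In all, 5 lipid genes were higher and 9 lower of 25 tested. With BMDM replicate 3 included, 2 were called higher and 1 lower. Abcg1, a cholesterol exporter, was higher in BMDCs, with 82.3, 124 and 91.1 against 10.5 and 19.5 FPKM (2.71 ± 0.35, adjusted p = 0.0025), whereas the other exporter, Abca1, had 6.31, 9.92 and 6.63 against 6.02 and 8.86 FPKM and was not called (0.02 ± 0.28, adjusted p = 0.969). Ch25h, which makes 25-hydroxycholesterol, had 71.6, 166 and 119 FPKM in BMDCs and 5.77 and 2.39 in BMDMs (4.86 ± 0.56, adjusted p = 0.00158). The desaturase Scd2 (3.19 ± 0.25, adjusted p = 0.000402) and the lipase Mgll (5.39 ± 0.57, adjusted p = 0.00119) were higher as well, and the lipid droplet protein Plin2 was lower (-1.70 ± 0.25, adjusted p = 0.00371).

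STING itself was higher in BMDCs at rest. Tmem173 had 51.6, 28.8 and 35.3 FPKM in BMDCs and 14.7 and 9.91 in BMDMs, every BMDC library lay above both BMDM libraries, and the difference was called (1.63 ± 0.30, adjusted p = 0.00941). BMDM replicate 3 had 16.3 FPKM, but it lacked macrophage transcripts, so that value is no check of the difference. Of 17 genes of cytosolic DNA sensing, 5 were higher and 3 lower, where 13.6% of all genes tested were higher and 12.7% lower. Mb21d1, which encodes the sensor cGAS, had 2.05, 2.76 and 2.69 against 6.15 and 2.72 FPKM and was not called (-0.83 ± 0.36, adjusted p = 0.135, but adjusted p 0.0144 without BMDM replicate 2). The kinase Tbk1 was lower in BMDCs, with 12.6, 14.2 and 14.9 against 25.2 and 25.6 FPKM (-0.88 ± 0.15, adjusted p = 0.00762), and its substrate Irf3 had 12.9, 11.8 and 15 against 11.1 and 9.09 and was not called (0.38 ± 0.18, adjusted p = 0.176). Enpp1, which degrades the STING ligand cGAMP, was lower (-3.39 ± 0.30, adjusted p = 0.000624), and Samhd1, a nucleotide hydrolase, was higher (1.30 ± 0.21, adjusted p = 0.00521). Pycard, the inflammasome adaptor, was higher, with 43.9, 28.2 and 21.8 against 9.86 and 6.92 FPKM (1.88 ± 0.33, adjusted p = 0.00783).

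Interferon-stimulated genes differed gene by gene, 4 higher and 7 lower of 21 tested, where 13.6% of all genes tested were higher and 12.7% lower. Oas3 had 0.374, 0.598 and 0.439 FPKM in BMDCs and 4.34 and 3.92 in BMDMs (-3.14 ± 0.26, adjusted p = 0.000471), and Oas2, of the same family of antiviral sensors, had -3.55 ± 0.39, adjusted p = 0.00138. Mx1, an antiviral GTPase, went the other way with 9.94, 8.58 and 8.96 against 0.285 and 0.363 FPKM (4.80 ± 0.24, adjusted p = 0.000129), as did the guanylate-binding protein Gbp2 with 34.5, 34.8 and 28.6 against 1.69 and 3.43 (3.65 ± 0.35, adjusted p = 0.000786).

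Genes of DNA replication and cell division were lower in BMDCs for 22 and higher for 1 (Ccne1) of 32 tested, with a median of -0.89. Over all genes tested, 12.7% were called lower and 13.6% higher. The call of Ccne1, a cyclin of the G1 to S step, depended on 1 library (0.92 ± 0.18, adjusted p = 0.011, but adjusted p 0.0605 without BMDC replicate 2). Pcna, the polymerase clamp, had 91.2, 76.9 and 72.2 FPKM in BMDCs and 289 and 184 in BMDMs (-1.58 ± 0.22, adjusted p = 0.00347), and the 6 subunits of the MCM helicase had log2 fold changes between -1.73 and -1.03. The licensing factor Cdt1 had 9.41, 10.2 and 8.43 against 47.7 and 53.9 FPKM (-2.46 ± 0.16, adjusted p = 0.000251). Mki67, a marker of cycling cells, had 5.09, 6.1 and 5.43 against 11.6 and 12.3 FPKM (-1.12 ± 0.16, adjusted p = 0.00329). The mitotic genes Aurkb, Bub1 and Bub1b were not called. Without BMDC replicate 2 there were 15 calls, all lower, and without BMDC replicate 3 there were 13, 12 of them lower. With the spread estimated from all 20 libraries there were also 13 calls, 12 of them lower, and with BMDM replicate 3 included there were 8, all lower.

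By the rule on size, among called genes without overlap and with a mean of at least 20 FPKM in the higher culture, the 10 largest differences in favour of BMDCs were Plet1, Ccl17, Car4, Retnla, Cpa3, Rnase2a, Aqp3, Tuba8, Chil3 and Ccr7, listed by fitted value. All but Chil3 had at most 1 read in BMDMs, so their order is not settled. Tuba8, an alpha tubulin, had 38, 41.2 and 41 FPKM in BMDCs, at least 623-fold above BMDMs, and Aqp3, a water and glycerol channel, had 95.1, 33.3 and 67.1, at least 807-fold above them. In favour of BMDMs the rule gave Cx3cr1, C1qa, Apoe, Pcp4l1, C1qc, Cdkn1c, Hpgds, Stab1, C1qb and C5ar1. Hpgds, which makes prostaglandin D2, had 0.176, 0.396 and 0.206 FPKM in BMDCs and 31.4 and 23.2 in BMDMs (-6.72 ± 0.37, adjusted p = 0.000133). Pcp4l1 had 0.0684, 0.0323 and 0.194 against 40.7 and 12 FPKM (-8.01 ± 0.75, adjusted p = 0.000744). Cdkn1c, an inhibitor of cell division, had 0.0529, 0.325 and 0.275 against 3.72 and 45, so most of its BMDM signal was in replicate 2 (-6.80 ± 1.15, adjusted p = 0.00684).

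The same rule named the 10 called transcripts of highest mean FPKM in each direction. In BMDCs they were Chil3, Ccl6, Ccl17, Cd74, Mmp12, Mgl2, Rpl41, Rnase2a, Sh3bgrl3 and mt-Tp. Mmp12, the macrophage elastase, had 2036, 1798 and 1525 FPKM in BMDCs and 402 and 488 in BMDMs (1.99 ± 0.25, adjusted p = 0.00233), so this gene was abundant in both. Rnase2a, an eosinophil-associated ribonuclease, had 1339, 778 and 876 FPKM in BMDCs and 1 read in BMDMs. It belongs to a family of near-identical copies, as do Ear2 and Ear6, so the reads could be split among them. mt-Tp is a mitochondrial tRNA whose short length makes FPKM uncertain. In BMDMs the rule gave Fth1, Lyz2, Spp1, Ctsd, Apoe, Ctsb, Gpnmb, Cd68, Tyrobp and C1qb. Fth1, the heavy chain of ferritin, had 5141, 6834 and 6762 FPKM in BMDCs and 15969 and 22296 in BMDMs (-1.63 ± 0.27, adjusted p = 0.00578). Spp1, which encodes osteopontin, had 1672, 759 and 824 against 2113 and 6205 FPKM, and its call was lost without 1 library (-1.97 ± 0.53, adjusted p = 0.0356, but adjusted p 0.107 without BMDC replicate 2, 0.112 without BMDC replicate 3 and 0.164 without BMDM replicate 2). The same held for Rpl41, a ribosomal protein gene with near-identical copies (adjusted p 0.0562 without BMDC replicate 1, 0.0759 without BMDC replicate 2, 0.0674 without BMDC replicate 3 and 0.117 without BMDM replicate 1), and for Sh3bgrl3 (adjusted p 0.091 without BMDC replicate 2, 0.0798 without BMDC replicate 3 and 0.0626 without BMDM replicate 1). It also held for the protease Ctsd (adjusted p 0.0776 without BMDC replicate 2, 0.104 without BMDC replicate 3 and 0.0575 without BMDM replicate 2) and the signalling adaptor Tyrobp (adjusted p 0.0588 without BMDC replicate 2 and 0.0876 without BMDC replicate 3).

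Markers of other cell types were read in the same libraries. Of 12 mast cell and basophil genes, 7 were tested, all of which passed the filter through BMDCs alone, so their call in that direction is no result. Cpa3, the mast cell carboxypeptidase, had 84.1, 222 and 113 FPKM in BMDCs, at least 1472-fold above BMDMs, where no read was counted, and Gata2 had 7.89, 10 and 9.37 against 0.172 and 0.211 FPKM (5.54 ± 0.26, adjusted p = 0.0001). The list summed to 107, 262 and 148 FPKM in BMDCs and 0.26 and 0.68 in BMDMs. Neutrophil genes gave 7 higher and 0 lower of 13 tested, with summed FPKM of 132, 86.1 and 101 in BMDCs and 52.2 and 53.1 in BMDMs. Of the 13, 7 passed the filter through BMDCs alone, so the count lends no support to a direction. The defining S100a8 and S100a9 overlapped between the cultures, and S100a8 had 12, 11.9 and 14.6 against 9.88 and 19.1 FPKM. B cell and T and NK cell genes had 0 members past the filter, with sums of at most 2.51 and 1.4 FPKM in any of the 5 libraries. Summed FPKM of eosinophil genes were 21, 20.1 and 28 in BMDCs and 5.27 and 4.49 in BMDMs, and 2 of 4 tested (Siglecf and Ear6) were higher in BMDCs. Of these 4 tested, 2 passed the filter through BMDCs alone, so this count lends no support to a direction. Of 4 plasmacytoid dendritic cell genes tested, 1 (Cox6a2) was higher, where 26.3% of all genes tested were called. Without BMDC replicate 1, 2 or 3 none of these 4 was called, and without BMDM replicate 2 there were 3 calls, 2 of them higher. Of 4 erythroid and megakaryocyte genes, 3 (Hba-a1, Hbb-bt and Itga2b) were higher and 1 (Pf4) lower, and the Hba-a1 call was lost without 1 library (adjusted p 0.101 without BMDC replicate 2 and 0.118 without BMDC replicate 3). The 3 higher genes passed the filter through BMDCs alone, so their direction is no result. Osteoclast genes gave 3 higher and 2 lower of 10 tested. The higher ones included the fusion receptors Dcstamp, with 76.3, 71.8 and 73.1 against 2.7 and 3.31 FPKM (4.60 ± 0.20, adjusted p = 9.19e-05), and Ocstamp (7.26 ± 0.55, adjusted p = 0.00036). Of the lower ones, Tnfrsf11a, which encodes RANK, had the lowest log2 fold change of the list (-2.7). Without BMDC replicate 1, 2 or 3 the osteoclast list held 3 calls in each case, 2 of them higher. Without BMDM replicate 1 there were 2 higher and 4 lower, and without BMDM replicate 2 there were 5 higher and 1 lower.

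BMDM replicate 2 stood apart from replicate 1 by fibroblast transcripts. The 20 genes of that list summed to 37.0 FPKM in BMDM replicate 1, 556 in replicate 2 and 3365 in replicate 3, against 131, 84.6 and 108 in BMDCs. Col1a1, a type I collagen, had 0.107, 0.147 and 1 FPKM in BMDCs and 3.02 and 15.8 in BMDMs (-4.51 ± 1.06, adjusted p = 0.0228, but adjusted p 0.0757 without BMDC replicate 1, 0.0658 without BMDC replicate 2 and 0.0935 without BMDM replicate 2). Acta2, the smooth muscle actin, had 2.27, 1.23 and 4.29 against 5.75 and 136 FPKM (-4.80 ± 1.19, adjusted p = 0.0271, but adjusted p 0.106 without BMDC replicate 1, 0.0815 without BMDC replicate 2, 0.0589 without BMDC replicate 3 and 0.229 without BMDM replicate 2). Thy1, which T cells carry as well, was the exception, with 55.2, 37.3 and 37.4 FPKM in BMDCs and 0.0163 and 0.0791 in BMDMs (9.73 ± 0.49, adjusted p = 0.000129). In all, 1 of 11 fibroblast genes tested was higher and 7 were lower in BMDCs, and without BMDM replicate 2 there were 2 calls, both higher. Without BMDC replicate 1 or 2 there was 1 call, which was higher. The 2 BMDM libraries were correlated at 0.961 (Pearson, log2 CPM over 11537 genes, which are not independent), and the BMDC libraries at 0.975 to 0.990. The 4 Y-linked genes tested were not called, and the 5 sex-linked genes summed to 28.1 to 39.0 FPKM in the 5 libraries and 0.00235 in BMDM replicate 3. The part of other cells in the differences above was not tested.

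**Figure D4:**
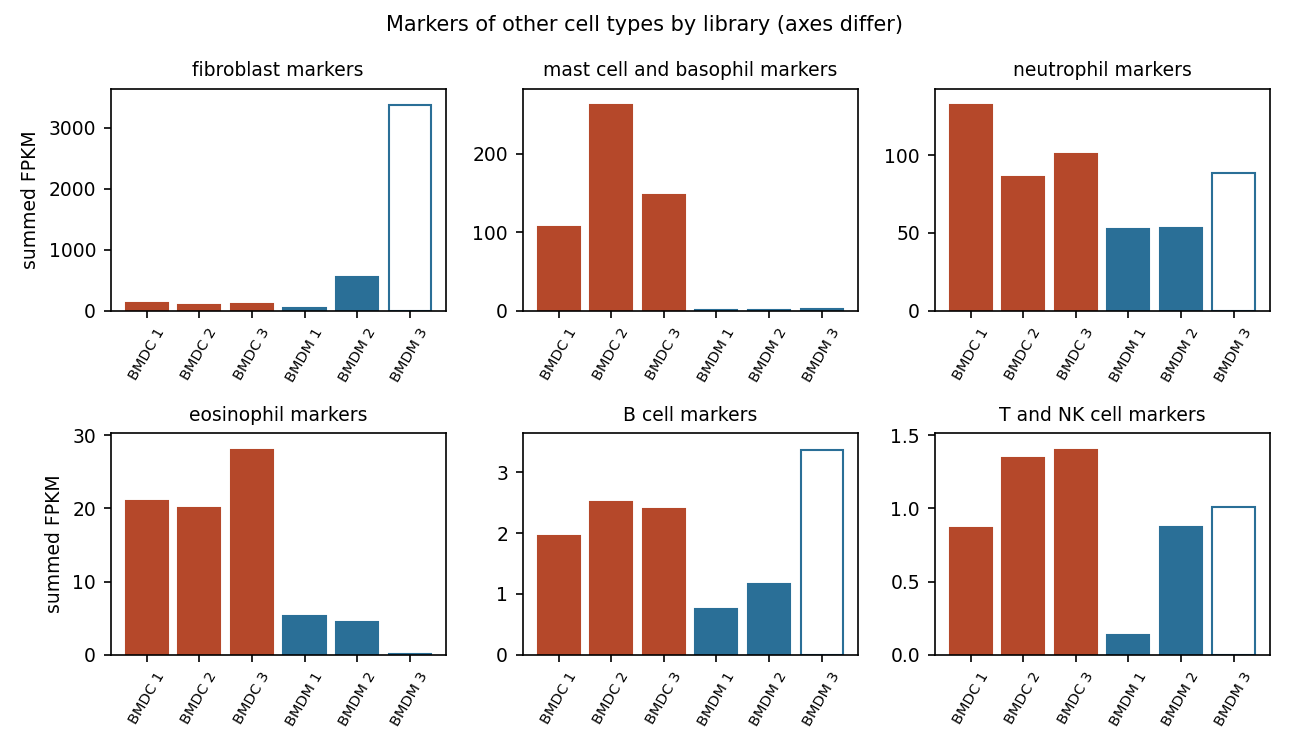
Summed FPKM of 6 marker lists in the 5 libraries compared (filled bars) and in BMDM replicate 3 (open bar), with an axis of its own for each list starting at 0. Mast cell and basophil transcripts are seen in all 3 BMDC libraries and are near 0 in BMDMs, and fibroblast transcripts are highest in BMDM replicate 3 and next in BMDM replicate 2.

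The CRE-labelled controls repeated the comparison with other libraries. Here 3018 of 11537 genes (26.2%) were called, 1618 (14.0%) higher and 1400 (12.1%) lower in BMDCs. Both sets called 2127 genes, all in the same direction, which is 70.0% of the WT-labelled and 70.5% of the CRE-labelled calls. Of the WT-labelled calls, 27 had the opposite sign in the CRE-labelled libraries. Itgax stood at 1.55, Csf1r at -2.92, Adgre1 at -1.78, Cd74 at 5.27, Apoe at -10.25 and Tmem173 at 1.58 on the log2 scale (adjusted p 0.00304, 0.000322, 0.0068, 0.000266, 0.000255 and 0.0149 in edgeR). Lyz2 had -0.57 and was not called (adjusted p 0.571 in edgeR). The call was kept in the CRE-labelled libraries by 15 of the 16 called dendritic cell identity genes, 10 of 12 MHC class II genes, 18 of 20 IL-4 genes, 13 of 16 macrophage identity genes and 8 of 23 cell division genes. Of the 8 fibroblast calls 1 was kept, and Acta2 stood at 0.14.

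**Figure D5:**
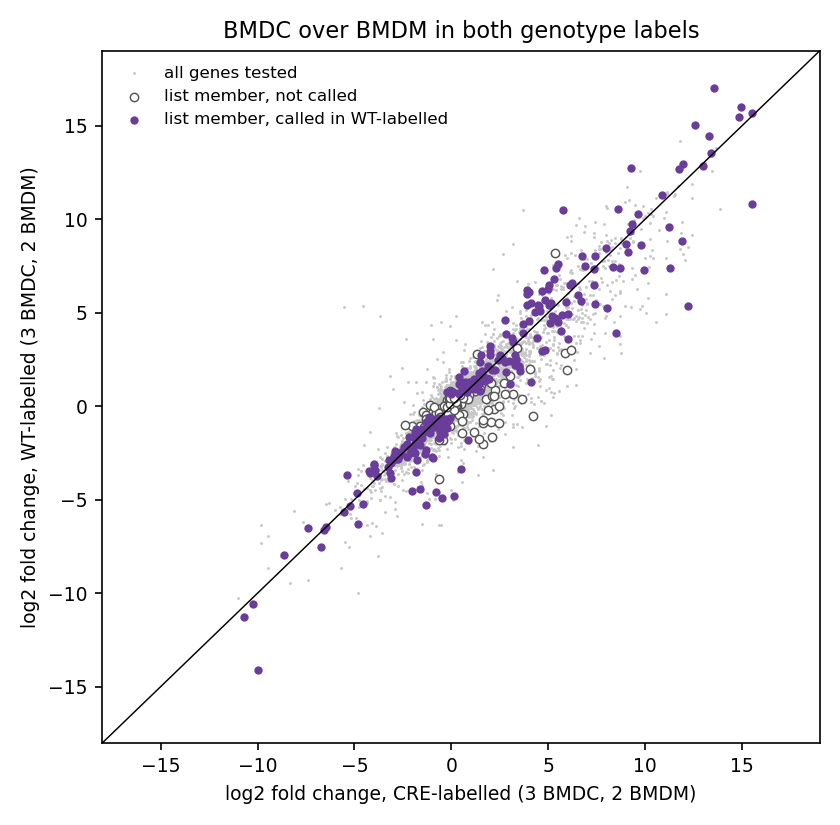
Log2 fold change of BMDC over BMDM in the CRE-labelled libraries (horizontal) against the WT-labelled libraries (vertical), 1 point per gene, with the line of equality. Called list members lie mostly along the line, and some called members, fibroblast genes among them, lie below it near 0 on the horizontal axis. Genes without a count in 1 culture are drawn at their fitted values, which depend on the prior count.

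A test of the difference itself, the interaction of cell type with genotype label, called 0 genes in edgeR, with 460 at an unadjusted p under 0.05, and 20 genes in DESeq2. The repeat is not fully separate from the first set. WT-labelled BMDC replicate 2 and CRE-labelled replicate 3 were correlated at 0.996, and WT-labelled replicate 3 and CRE-labelled replicate 1 at 0.995, both closer than any pair within the WT label. Among BMDMs, WT-labelled replicate 1 was correlated at 0.989 with each of the 2 CRE-labelled libraries, and at 0.961 with WT-labelled replicate 2. The 2 CRE-labelled BMDM libraries had a biological coefficient of variation of 4.25% against 32.1% for the 2 WT-labelled ones and 20.3% for the WT-labelled BMDCs.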

How the data were processed

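RNA was sequenced from poly(A)-selected NEBNext Ultra libraries, a kit that does not mark strand. Per the submitters' processing notes, the tools were CASAVA 1.8, fastp, HISAT2 2.0.5, featureCounts 1.5.0-p3 and DESeq2 1.20.0, with GRCm38 (mm10). The authors deposited 1 table of 54532 genes with read counts and FPKM values per library. Its fold changes, p-values and normalised means from the authors' own comparisons were not used. Spreadsheet dates had replaced 27 gene names, which were restored from gene identifiers.

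Groups came from the library labels. Counts of 3 BMDC and 2 BMDM libraries (16904428 to 18912887 reads) were tested with edgeR 4.0.16 (R 4.3.3; TMM scaling, quasi-likelihood, two-sided, Benjamini-Hochberg adjusted p under 0.05) on the 11537 genes that reached 1 FPKM in 2 or more of the 5 libraries. Standard errors were the log2 fold change divided by the square root of F. Levels are given in FPKM. A gene with no count in a culture was given a lower bound from a floor of 3 counts per library, and one with 1 to 3 counts a ratio with, where printed, an exact 95% interval. Intervals and floors cover counting error only. The members and gene lists were chosen with earlier results of these data known. Named genes were the 6 markers, members of the lists, and, among called genes without overlap and with at least 20 FPKM in the higher group, the 10 largest changes and 10 highest means in each direction. On simulated counts of these 11537 genes, edgeR recovered 86.5% of 200 genes changed 4-fold, with 15 false calls. The simulation changed no other gene and gave both cultures the same spread. In the data 26.3% of genes were called and the cultures differed in spread, so these rates do not describe the comparison itself. Alternatives used DESeq2 1.42.0, limma 3.58.1 on log2(FPKM + 1) and log2(FPKM + 0.1), other scalings, filters and thresholds, a replicate block, and each library left out in turn. Promoter sequences were from RefSeq (GRCm38.p6). Treated libraries, which received the STING agonist DMXAA, were not used here except to estimate the spread in 1 alternative.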

Additional observations from a re-analysis of the deposited data

Results flagged for a closer look

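Fibroblast transcripts were high in a library outside the comparison. The 20 fibroblast genes summed to 3365 FPKM in WT-labelled control BMDM replicate 3, above the 37.0 to 556 FPKM of BMDM replicates 1 and 2 and the 84.6 to 131 FPKM of the BMDC libraries. The same library had 0 FPKM of Adgre1. Groups of 3 and 2 libraries were too small for a search for outlying values.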

How the results depend on the processing

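In the WT-labelled libraries 3038 genes were called, 51.6% of them higher in BMDCs. With median-of-ratios scaling, either of the 2 other filters, DESeq2 or limma with either pseudocount, the count stayed within 1.5 times of that value. The same held for the spread of all 20 libraries and for the study's own rule. That rule asks for a fold of at least 2 and a p-value that is not adjusted, and it gave 2421 calls. The count was 1519 at an adjusted p under 0.01, 1085 with glmTreat against a fold of 2 (62.0% higher) and 651 with BMDM replicate 3 (64.7% higher). Without 1 library it ranged from 1822 to 3086, lowest without BMDC replicate 2, with 1823 without BMDC replicate 3. The list members called ranged from 191 to 239 without 1 library, and were 78 with BMDM replicate 3. Calls then fell to 9 among dendritic cell identity genes, 5 among maturation genes and 14 among IL-4 genes. With BMDM replicate 3, C3 turned to -0.08 and Cebpd to -0.04, and 101 other named genes lost the call. Without any filter the median of all genes shifted to 0.156. The interaction called 20 genes in DESeq2, 8 higher and 12 lower. The cause of these changes was not tested, except that the stricter thresholds call fewer genes by construction.

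The replicate numbers were shared between the cultures, but the paired libraries did not deviate together (correlation of deviations -0.157 in the WT-labelled and 0.0101 in the CRE-labelled libraries). A fit with the replicate block called 1507 genes in the WT-labelled libraries and 2464 in the CRE-labelled ones, and 22 named genes lost the call. Of the lists, cell division fell from 23 calls to 5 and the lysosomal list from 13 to 4, all lower in BMDCs. Lipid handling then held 5 higher and 5 lower genes, costimulatory ligands 3 and 3, and chemokines 8 and 2. Depth limits the genes at or near 0 counts, whose fold is given as a bound or a ratio.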
